A study of Homo sapiens with 12 samples.

Results

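The transcripts described here encode chaperones and folding enzymes of the endoplasmic reticulum (ER), together with a pair of stress-inducible ER factors. They were picked by gene, through Ensembl transcript identifiers and not by a cut on measured values: HSPA5 (ENST00000324460), HSP90B1 (ENST00000299767), CALR (ENST00000316448), CANX (ENST00000247461), PDIA3 (ENST00000300289), PDIA4 (ENST00000286091 or ENST00000652332), PDIA6 (ENST00000272227), DNAJB9 (ENST00000249356) and HERPUD1 (ENST00000439977). Earlier results of these data were known when the genes were chosen. Of these 9 genes, 8 were found among the 18338 transcripts, each listed in all 12 libraries. The CANX identifier and the first PDIA4 identifier were in no count file, so CANX was not analysed here and PDIA4 was read from ENST00000652332. No reference table used here paired the transcript identifiers with symbols (0 of 18338 matched), so gene names rest on the given identifiers.

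The libraries came from HEK293T, a transformed human embryonic kidney line, with a WT genotype label. Ribosome-protected fragments (RPF), which are short pieces left inside ribosomes after RNase digestion, and mRNA were each sequenced at 0, 60 and 360 min of GSK-A1, an inhibitor of the lipid kinase PI4KA, with 2 replicates per assay and time. Every library carries the same GSK-A1 label, so 0 min serves as the untreated reference only through its time. No label ties replicates to separate cultures, so the p-values below measure only the spread between these libraries, which may be technical. The HEK293T identity was not checked against marker genes, since these could not be matched.

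Proteins entering the secretory pathway fold in the ER lumen. HSPA5 (BiP), an Hsp70, binds exposed hydrophobic stretches and is aided by J-domain proteins such as DNAJB9 and by the Hsp90 paralogue HSP90B1 (GRP94), while the lectin chaperone CALR holds glycoproteins and the protein disulfide isomerases PDIA3, PDIA4 and PDIA6 form and exchange disulfide bonds. When unfolded protein builds up, the sensors ATF6, IRE1 and PERK start the unfolded protein response. ATF6 and the IRE1 product XBP1 raise transcription of many genes of this kind, in part through the ER stress response element (ERSE).  Lipid changes in the membrane are a known second trigger of these sensors.

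The promoters were searched to see which members hold this element. An ERSE was counted where CCAAT and CCACG were separated by 9 bases, and an ERSE-II where ATTGG, the reverse complement of CCAAT, and CCACG were separated by 1 base; both strands of the 250 bases upstream of each RefSeq gene start (GRCh38.p14) were read. RefSeq windows were held for 8 of the 9 genes, 13 windows in all, as some genes have more than 1 start; PDIA3 was the gene with none. An ERSE was present in 5 of the 8 genes (HSPA5, HSP90B1, CALR, CANX and PDIA6) and an ERSE-II in 1 (HERPUD1). Either element was in 7 of these 13 windows and in 0.125% of the 35116 windows searched (44 windows, these 7 included). Of the 7, 2 are overlapping CANX windows that hold the same ERSE, so that element is counted in both. The element was first defined in promoters of this kind, so the matches describe the genes and are not a finding of these libraries. The half-sites alone are common, CCAAT in 32% and CCACG in 33.5% of windows, and both elements contain them. Windows of 4 genes are shown here, 5′ to 3′ on the gene's strand, with ERSE and ERSE-II matches in capitals. HERPUD1 had the largest mRNA difference among the genes with a match, CALR the smallest, HSPA5 is the best known target, and HSP90B1 holds 2 matches.

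HSPA5 (chr9:125241344-125241593, minus strand): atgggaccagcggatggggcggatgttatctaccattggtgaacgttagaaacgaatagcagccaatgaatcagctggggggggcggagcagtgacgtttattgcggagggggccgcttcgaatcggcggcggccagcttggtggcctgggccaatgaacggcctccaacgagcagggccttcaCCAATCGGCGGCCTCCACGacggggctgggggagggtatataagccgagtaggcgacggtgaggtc

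HSP90B1 (chr12:103930160-103930409, plus strand): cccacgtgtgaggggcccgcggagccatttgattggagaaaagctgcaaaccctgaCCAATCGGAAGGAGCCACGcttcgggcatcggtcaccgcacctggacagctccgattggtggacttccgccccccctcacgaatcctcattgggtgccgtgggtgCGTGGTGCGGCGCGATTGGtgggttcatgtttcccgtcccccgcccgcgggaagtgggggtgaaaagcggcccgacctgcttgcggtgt

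CALR (chr19:12938359-12938608, plus strand): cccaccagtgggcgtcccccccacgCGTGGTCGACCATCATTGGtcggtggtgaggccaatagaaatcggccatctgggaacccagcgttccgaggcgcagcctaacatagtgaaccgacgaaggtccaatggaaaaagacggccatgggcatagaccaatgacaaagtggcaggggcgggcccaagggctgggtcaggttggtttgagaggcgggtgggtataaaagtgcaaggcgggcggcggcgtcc

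HERPUD1 (chr16:56931892-56932141, plus strand): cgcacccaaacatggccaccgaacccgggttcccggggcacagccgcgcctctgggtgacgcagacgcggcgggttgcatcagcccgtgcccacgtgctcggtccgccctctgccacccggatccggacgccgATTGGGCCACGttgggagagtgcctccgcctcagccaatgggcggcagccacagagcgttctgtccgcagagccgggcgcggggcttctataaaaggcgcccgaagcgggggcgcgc

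Relative to the start, the HSPA5 match lay at −66 to −48 and reads forward, as does the HERPUD1 ERSE-II at −117 to −107. HSP90B1 had a forward match at −194 to −176 and a reverse match at −89 to −71, and CALR a reverse match at −225 to −207. DNAJB9 and PDIA4 held half-sites but neither full element in these letters, which says only that the exact spacing is not in this window.

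**Figure D1:**
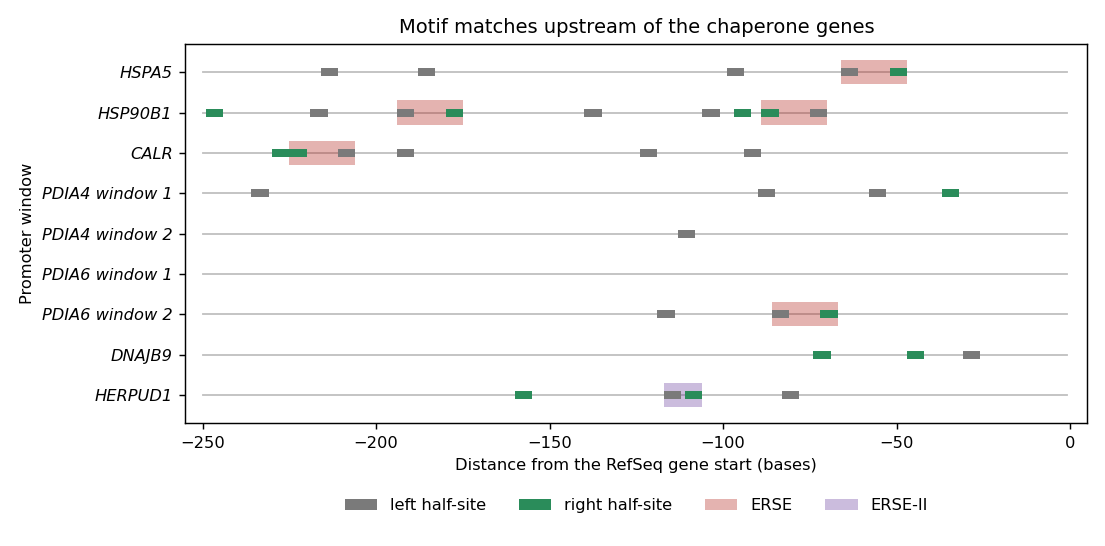
Motif matches in the 250 bases upstream of the RefSeq starts; the horizontal axis is distance from the start in bases and each row is 1 window, with tall pale boxes for ERSE and ERSE-II and small bars for the left (CCAAT) and right (CCACG) half-sites on either strand. HSPA5, HSP90B1, CALR, 1 PDIA6 window and HERPUD1 carry a full element, whereas DNAJB9 and both PDIA4 windows do not. The CANX windows are not drawn.

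Library totals ran from 429026 to 1165740 counts. The 8 genes together took 0.118% of the counts in mRNA 360 min replicate 1 (95% exact Clopper-Pearson interval 0.108 to 0.128, which covers counting error only) and 0.264% in mRNA 60 min replicate 2 (0.254 to 0.274), the lowest and the highest shares of the 12 libraries. Levels below are CPM, counts scaled to a common library total after TMM (trimmed mean of M-values) adjustment, a scale on which longer transcripts collect more reads, so each gene is compared only with itself. Summed over the 8 genes, mRNA was 2399 and 1500 CPM at 0 min (replicates 1 and 2), 1783 and 2445 CPM at 60 min, and 1417 and 1382 CPM at 360 min. Both 360 min mRNA libraries thus lay below the other 4. They were also the shallowest mRNA libraries, at 429026 and 593334 counts against 719846 to 1002695 at the earlier times. Depth and time thus go together in this assay, and the part of depth was not tested. The sum in RPF was 1748 and 2276 CPM at 0 min, 1825 and 2345 CPM at 60 min, and 1677 and 1871 CPM at 360 min, where only replicate 1 of 360 min lay below every other library. Among the mRNA libraries, 0 min replicate 1 and 60 min replicate 2 were the high ones, at 0.245% and 0.264% of counts. In bulk libraries such as these, fewer cells expressing a gene and less of its RNA per cell cannot be told apart.

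At 360 min the mRNA of most of these genes lay below its level at the earlier times, by the largest amounts in HERPUD1 and DNAJB9, while the CALR time means were nearly equal; the median change in footprints was smaller, and no difference passed the test. The test was edgeR's quasi-likelihood test over all transcripts of an assay, with Benjamini-Hochberg adjustment and a threshold of 0.05, and it called 0 of 9693 transcripts in mRNA (0%) and 0 of 9653 in RPF (0%) in each of the 3 comparisons of times, hence 0 of the 8 members. Log2 changes and their standard errors (SE) below come from those fits.

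HERPUD1, a membrane protein that helps assemble the machinery for degrading misfolded ER proteins and is itself induced by ER stress, had the smallest p of the members in mRNA. Its mRNA was 83.5 and 108 CPM at 0 min (65 and 74 counts), 104 and 114 CPM at 60 min, and 47.7 and 24.9 CPM at 360 min (17 and 14 counts). Both 360 min libraries lay below all 4 earlier ones, and the 2 earlier times overlapped. The log2 change was −1.62 (SE 0.446, 95% interval −2.62 to −0.61) from 60 to 360 min, a level 0.326 times that at 60 min. Its unadjusted p in edgeR was 0.00529, rank 152 of 9693 transcripts, and its adjusted p was 0.332. Against 0 min the change was −1.43 (SE 0.448), with an unadjusted p of 0.0107 and an adjusted p of 0.558 in edgeR. HERPUD1 footprints were 41.5 and 143 CPM at 0 min (45 and 129 counts), 162 and 147 CPM at 60 min, and 48.9 and 95.3 CPM at 360 min. The 60 min libraries were the 2 highest and lay above both 360 min libraries, but the 0 min replicates differed 3.44-fold and spanned nearly the whole range. The RPF log2 change was −1.12 (SE 0.501) from 60 to 360 min, with an unadjusted p of 0.0398 and an adjusted p of 0.619 in edgeR, and 0.76 (SE 0.484) from 0 to 60 min, with an adjusted p of 0.999.

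DNAJB9 (ERdj4), a J-domain partner of HSPA5 that also holds the sensor IRE1 inactive, had the fewest counts of the members, 1 to 36 per library. Its mRNA was 15.4 and 10.2 CPM at 0 min (12 and 7 counts), 18.5 and 25.0 CPM at 60 min (16 and 27 counts), and 5.61 and 7.11 CPM at 360 min (2 and 4 counts). The 3 times did not overlap, with 60 min highest and 360 min lowest. The mRNA log2 change was −1.73 (SE 0.663, 95% interval −3.22 to −0.23) from 60 to 360 min, with an unadjusted p of 0.0281 and an adjusted p of 0.434 in edgeR. Footprints were 13.8 and 22.1 CPM at 0 min, 39.0 and 8.66 CPM at 60 min (36 and 6 counts), and 14.0 and 1.87 CPM at 360 min (10 and 1 counts). The replicates of 60 min differed 4.5-fold and those of 360 min 7.48-fold, so the times overlapped. The RPF log2 change of −1.51 (SE 0.789) from 60 to 360 min was −0.04 without RPF 60 min replicate 1 and −3.66 without RPF 360 min replicate 1.

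HSPA5, the central Hsp70 of the ER, had mRNA levels of 564 and 401 CPM at 0 min, 490 and 612 CPM at 60 min, and 292 and 323 CPM at 360 min. Both 360 min libraries were below the other 4. The log2 change was −0.84 (SE 0.434) against 60 min (edgeR adjusted p 0.547) and −0.65 (SE 0.434) against 0 min (adjusted p 0.655). The second of these was −0.34 without mRNA 0 min replicate 1. Its footprints were 204 and 493 CPM at 0 min, 276 and 476 CPM at 60 min, and 249 and 365 CPM at 360 min, where replicate 2 was the higher library at every time. The difference between replicates, 2.42-fold at 0 min, was larger than that between any 2 time means, and the RPF log2 changes of HSPA5 were 0.11 (SE 0.495) at 60 min and −0.18 (SE 0.497) from 0 to 360 min.

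HSP90B1, the ER Hsp90 that folds integrins and Toll-like receptors, differed 2.29-fold between its mRNA replicates of 0 min. Its mRNA was 451 and 197 CPM at 0 min, 269 and 469 CPM at 60 min, and 143 and 229 CPM at 360 min. The 360 min libraries lay below those of 60 min but overlapped those of 0 min. The log2 change was −0.98 (SE 0.543) against 60 min, with an edgeR adjusted p of 0.574, and −0.79 (SE 0.543) against 0 min, with an adjusted p of 0.660. Without mRNA 0 min replicate 1 the latter was −0.03, and without mRNA 0 min replicate 2 it was −1.28. Footprints of HSP90B1 were 232 and 312 CPM at 0 min, 298 and 421 CPM at 60 min, and 229 and 293 CPM at 360 min; the 360 min libraries lay below those of 60 min, with a log2 change of −0.46 (SE 0.425).

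CALR, the soluble lectin chaperone of the calnexin cycle and a store of ER calcium, was the member whose time means differed least in mRNA. Its mRNA was 508 and 301 CPM at 0 min, 358 and 463 CPM at 60 min, and 407 and 403 CPM at 360 min. The log2 change from 0 to 360 min was 0.0015 (SE 0.448), and its 95% interval, −1.01 to 1.01, still spans a doubling either way. CALR footprints were 528 and 638 CPM at 0 min, 426 and 599 CPM at 60 min, and 522 and 544 CPM at 360 min, with log2 changes of −0.19 (SE 0.475) and −0.13 (SE 0.476) against 0 min. All times overlapped in both assays.

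PDIA3 (ERp57), the disulfide isomerase that works with CALR on glycoproteins, had mRNA replicates that differed by at most 1.2-fold. Its mRNA was 109 and 99.0 CPM at 0 min, 119 and 131 CPM at 60 min, and 75.8 and 90.6 CPM at 360 min. Here all 3 times were separate, with 60 min highest and 360 min lowest. The log2 change from 60 to 360 min, −0.58 (SE 0.370), had an edgeR adjusted p of 0.632. PDIA3 footprints were 227 and 172 CPM at 0 min, 168 and 214 CPM at 60 min, and 157 and 150 CPM at 360 min, the 360 min libraries being the 2 lowest. PDIA4 (ERp72) mRNA was 279 and 184 CPM at 0 min, 191 and 264 CPM at 60 min, and 168 and 156 CPM at 360 min, again the 2 lowest libraries. Its log2 change at 360 min was −0.51 (SE 0.423) against 0 min and −0.49 (SE 0.422) against 60 min. PDIA4 footprints stayed within 221 and 296 CPM, the narrowest range of any member in RPF (1.34-fold). PDIA6 (P5), which also tunes IRE1 signalling, had mRNA of 389 and 201 CPM at 0 min, 234 and 366 CPM at 60 min, and 278 and 147 CPM at 360 min. Its times overlapped in mRNA, while its footprints of 201 and 157 CPM at 360 min lay below the 205 and 252 CPM of 0 min and the 202 and 258 CPM of 60 min.

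**Figure D2:**
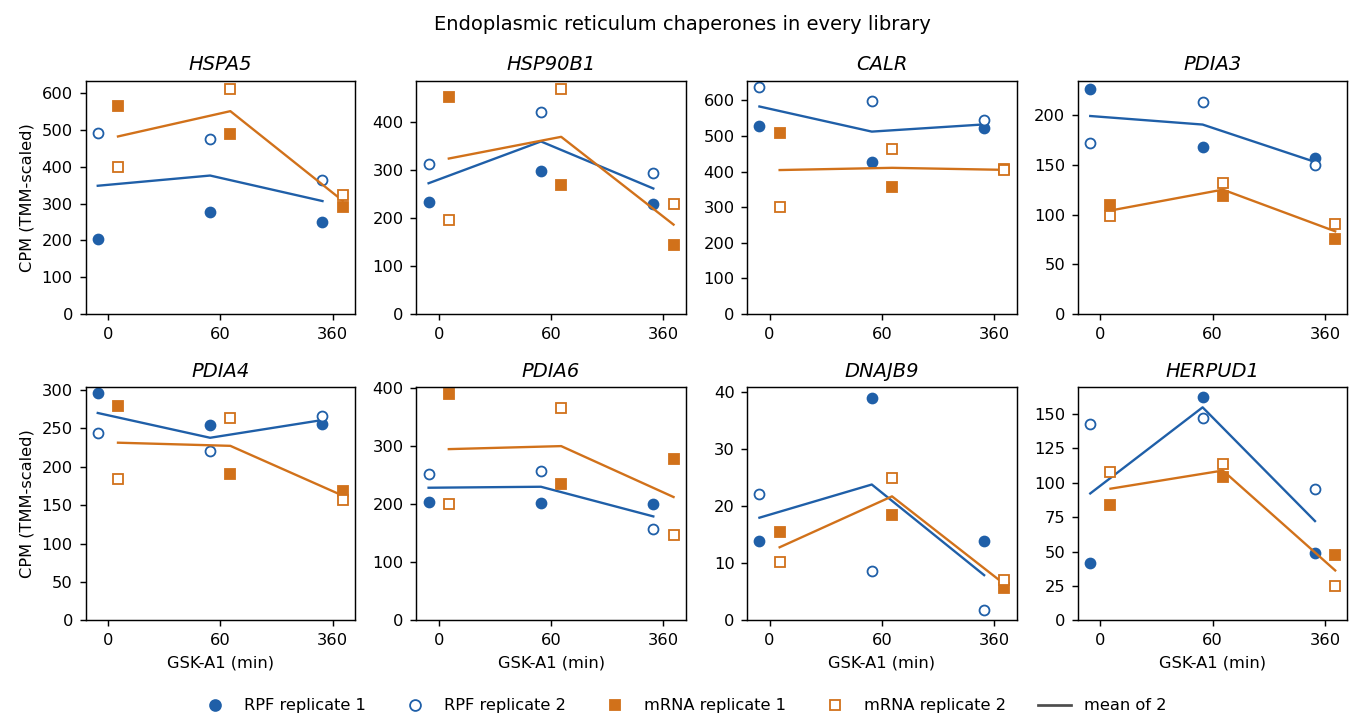
RPF (circles) and mRNA (squares) level of each gene in CPM on a linear axis from 0, by time of GSK-A1; filled symbols are replicate 1, open symbols replicate 2, and lines join the means of 2 libraries. The mRNA points at 360 min are the lowest of the mRNA points for HSPA5, PDIA3, PDIA4, DNAJB9 and HERPUD1, and the CALR mRNA means are 405, 411 and 405 CPM.

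Read as a group, the mRNA of 8 of 8 members had a negative log2 change from 60 to 360 min, as did 52.3% of all transcripts tested. The member median was −0.71 beside −0.04 over all. In 6 of the 8 (HSPA5, HSP90B1, PDIA3, PDIA4, DNAJB9 and HERPUD1) both 360 min libraries lay below both 60 min libraries, as they did for 19.6% of all transcripts. An unadjusted edgeR p under 0.05 with a lower level was found for 2 of the 8 (DNAJB9 and HERPUD1) and for 3.79% of all transcripts. Against 0 min, 7 of 8 changes were negative, as were 51.8% over all transcripts, with a median of −0.58 beside −0.03. There 5 of the 8 (HSPA5, PDIA3, PDIA4, DNAJB9 and HERPUD1) did not overlap and were lower, against 19.1% of all transcripts. Only HERPUD1 had an unadjusted p under 0.05 there, where 3.98% of transcripts did with a lower level. Leaving out mRNA 0 min replicate 2 made that 5 of 8 into 8 of 8, where, with a single library at 0 min, 30.4% of all transcripts were lower without overlap. Without mRNA 0 min replicate 1 the changes of CALR (0.47) and PDIA6 (0.12) were positive. Against 60 min, CALR was at 0.18 without mRNA 60 min replicate 2. From 0 to 60 min the median was 0.19 beside −0.02, and PDIA3 and DNAJB9 did not overlap and were higher, 2 of 8 beside 13.4%. These comparisons share libraries (those with 360 min share its libraries), so they are not separate lines of support. In mRNA DESeq2 called 21 transcripts from 0 to 360 min and 62 from 60 to 360 min, among them none of the members with an adjusted p. It gave no adjusted p to PDIA3, DNAJB9 and HERPUD1 in the first and to DNAJB9 in the second, so these could not be called there.

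Scaling moved the level of all transcripts in these comparisons. It shifts every transcript by nearly the same amount, so the distance of the members from that level could hardly change. That distance is therefore no check of the member differences. With library totals alone, the median over all transcripts was −0.28 from 60 to 360 min and −0.19 from 0 to 360 min. The member median minus the median of all was −0.67 under both scalings for the first and −0.55 or −0.56 for the second. Under TMM, 631 transcripts were higher and 367 lower at an unadjusted p under 0.05 from 60 to 360 min; with library totals alone these were 360 and 670. From 0 to 360 min they were 479 and 386, and 266 and 608. Library totals also put the median of all transcripts at −0.12 in RPF from 0 to 360 min, and at −0.11 and 0.19 for the ratio of the assays from 0 to 60 min and from 60 to 360 min.

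In RPF the member medians lay nearer to 0 than in mRNA at 360 min. From 0 to 360 min, 8 of 8 members had a negative RPF change, as did 47.9% of all transcripts, with a median of −0.27 beside 0.02. PDIA3 and PDIA6 did not overlap and were lower, 2 of 8 beside 13.8%. The negative changes numbered 5 of 8 without RPF 0 min replicate 2, where HSPA5 was at 0.56, HSP90B1 at 0.14 and HERPUD1 at 0.75, and 5 of 8 without RPF 360 min replicate 1. Without RPF 0 min replicate 1 they numbered 7, with PDIA4 at 0.09. From 60 to 360 min the median was −0.34 beside 0.04, and HSP90B1, PDIA3, PDIA6 and HERPUD1 did not overlap and were lower (4 of 8 beside 18%) while PDIA4 was higher (1 of 8 beside 17.5%). HERPUD1 was the 1 member of 8 with an unadjusted p under 0.05, beside 2.94% of transcripts lower. In that comparison 469 transcripts were higher and 284 lower at this threshold under TMM, and 318 and 361 with library totals alone. From 0 to 60 min the RPF median was 0.06 beside −0.01, and HERPUD1 was the 1 of 8 that did not overlap and was higher, beside 15.2%. The PDIA4 and HERPUD1 separations upward were lost with library totals alone, where the times overlapped. Under that scaling the lower separations numbered 3 of 8 from 60 to 360 min, as HSP90B1 overlapped, beside 22.1% of all transcripts. From 0 to 360 min they numbered 4 of 8, beside 20.4%.

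**Figure D3:**
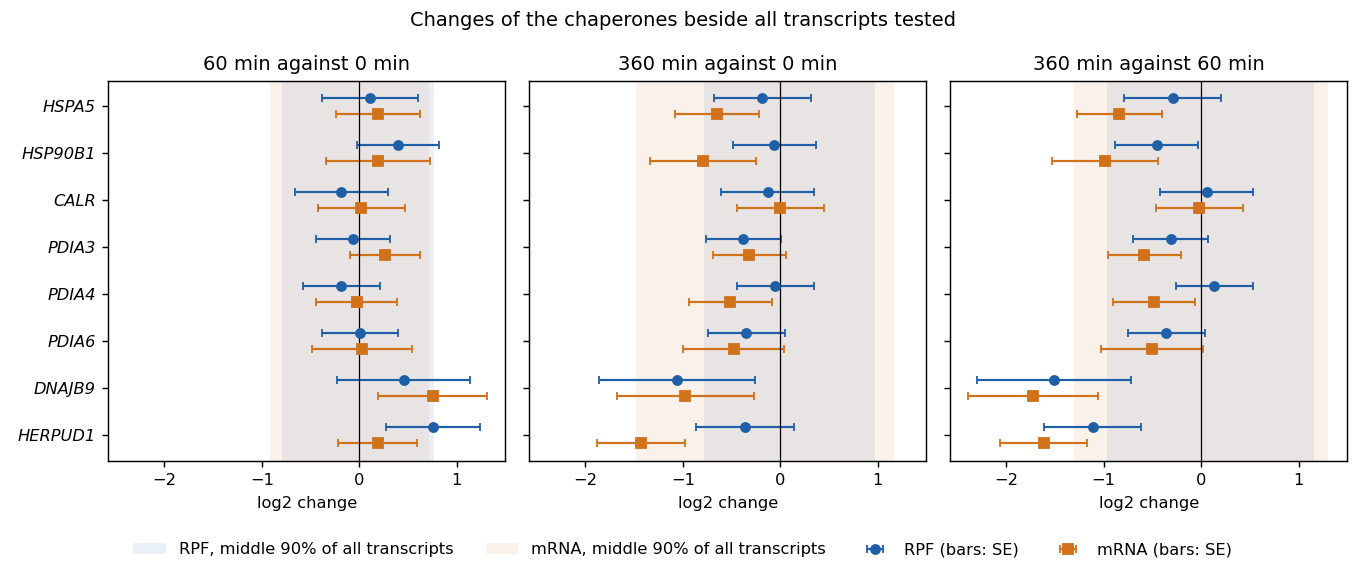
Log2 change of each gene in RPF (circles) and mRNA (squares) for the 3 comparisons of times, with bars of 1 SE; shaded bands hold the middle 90% of all transcripts tested in RPF (blue) and mRNA (orange). From 60 to 360 min the mRNA points lie left of 0, from −0.02 for CALR to −1.73 for DNAJB9, and from 0 to 60 min most bars cross 0.

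The ratio of footprints to mRNA, taken as translational efficiency (TE), was followed in 1 model of all 12 libraries. At 0 min the ratio of mean CPM was highest for PDIA3 (1.91) and CALR (1.44), 1.17 for PDIA4 and 0.964 for HERPUD1, and lowest for PDIA6 (0.775) and HSPA5 (0.722); DNAJB9 was at 1.41 and HSP90B1 at 0.841. The HERPUD1 and HSPA5 means cover footprint replicates that differed 3.44-fold and 2.42-fold: on leaving out single libraries the log2 ratio ran from −1.24 to 0.61 in HERPUD1 and from −1.28 to 0.06 in HSPA5. Such ratios are relative to the scaling of each assay and, where the counted region differs between assays, to transcript structure. Across 8632 transcripts, 954 (11.1%) had an RPF to mRNA ratio at 0 min that differed from 1 at an adjusted p under 0.05, and 0 of the 8 members did. PDIA3 came nearest, with a log2 ratio of 0.93 (SE 0.336), an unadjusted p of 0.0147 and an adjusted p of 0.0814 in edgeR. At an unadjusted p under 0.05, 17.8% of transcripts were higher. The DESeq2 run scaled libraries within each assay only, so depth was not equalised between RPF and mRNA. Its log2 ratios at 0 min were offset: 1.16 beside 0.93 in PDIA3, 0.75 beside 0.52 in CALR and 0.44 beside 0.22 in PDIA4. The DESeq2 adjusted p of PDIA3, 0.0319, carries that offset. The count of 954 fell on leaving out any library of 0 min. Such a fit keeps only 1 library of that assay at 0 min, so the fall cannot be tied to what the library left out holds.

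Over time the ratio was higher at 360 min than at 60 min in 8 of 8 members, by a median of 0.33 on the log2 scale beside 0.03 over all transcripts. It was lower in 48.6% of all transcripts, and 1 of the 8 member changes (PDIA4) exceeded its SE. Leaving out single libraries left 5 to 8 members higher, 5 without mRNA 60 min replicate 2 or mRNA 360 min replicate 2, and the lowest values were negative for DNAJB9 (−1.95), PDIA6 (−0.36), CALR (−0.22) and HERPUD1 (−0.08). It went from 0.682 to 0.997 in HSPA5, from 0.974 to 1.40 in HSP90B1, from 1.05 to 1.61 in PDIA4 and from 1.42 to 1.99 in HERPUD1. CALR (1.25 to 1.32) and PDIA6 (0.767 to 0.843) differed least. None of these differences passed: the interaction of assay and time called 0 of 8632 transcripts (0%) in each of the 3 comparisons, and in edgeR the largest member change, that of PDIA4, was 0.55 (SE 0.526, adjusted p 0.949). From 0 to 360 min the largest was that of HERPUD1, 1.02 (SE 0.771, 95% interval −0.63 to 2.67, adjusted p 0.886), and the interval of HSPA5, −1.05 to 1.88, leaves room for a shift of more than 2-fold in either direction. The HSP90B1 value of 0.69 (SE 0.664) from 0 to 360 min was −0.028 without mRNA 0 min replicate 1. From 0 to 60 min no member change exceeded its SE, and the member median was −0.11 beside 0.02.

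**Figure D4:**
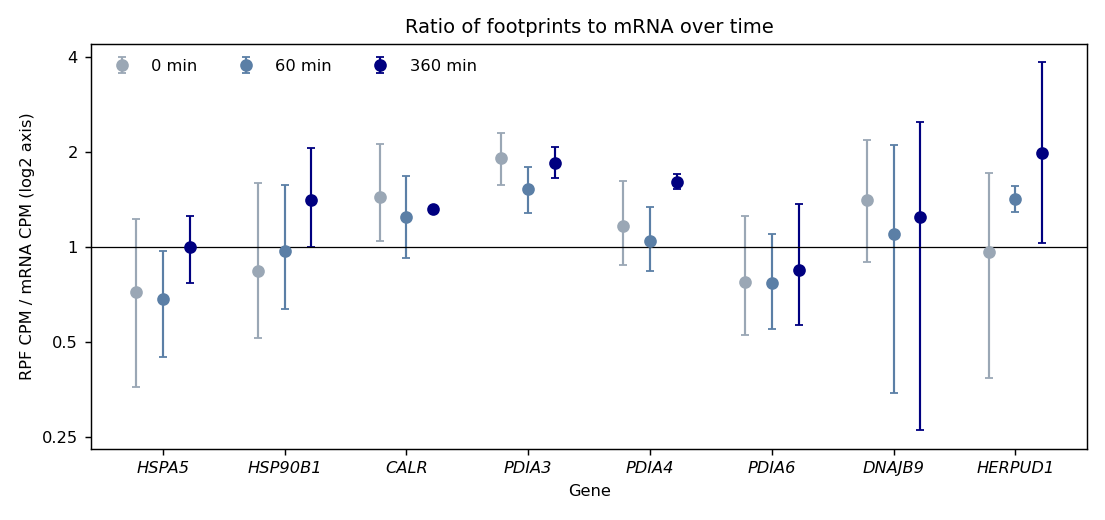
RPF CPM divided by mRNA CPM for each gene at 0, 60 and 360 min on a log2 axis; points are ratios of the means of 2 libraries and bars run from the lowest to the highest of the 4 possible ratios of single libraries. The 360 min point lies above the 60 min point in all 8 genes; the bars of those times overlap in every gene but PDIA4 (0.837 to 1.33 and 1.52 to 1.70).

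The mRNA changes were also read by promoter match. From 60 to 360 min their log2 changes were −1.62 (HERPUD1), −0.98 (HSP90B1), −0.84 (HSPA5), −0.51 (PDIA6) and −0.02 (CALR), while DNAJB9 (−1.73) and PDIA4 (−0.49) had a full element in none of their windows. PDIA6 held it in 1 of its 2 windows. Values of the genes with and without a match overlapped.

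Outside the 8 genes, the course of other transcripts over the 12 libraries was compared with the mean course of the 7 members that had at least 10 counts in every library. After log2 CPM was centred within each assay, the most similar of 4236 transcripts were ENST00000371145 (Pearson r = 0.953), ENST00000228740 (r = 0.93) and ENST00000323963 (r = 0.922). Each of these 7 members followed the mean of the others at r from 0.42 (CALR) to 0.838 (HSPA5). Whether the members share a single course was not tested. The points are 12 libraries that share their depth and scaling with the members, so these r values are descriptions without a test, and the genes of these identifiers were not looked up.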

How the data were processed

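RPF and mRNA of HEK293T cells were analysed in 12 libraries, 2 per assay and time, grouped by sample title. The deposited files hold unnormalized whole-number counts, 1 row per Ensembl transcript. The submitters' processing notes name cutadapt 2.8, Bowtie 1.2.3 and STAR 2.7.10a without roles; build, annotation, counted region, strand and the handling of duplicates and multiply mapping reads are not given in the sources used here, so reads of near-identical or overlapping transcripts are uncertain. Files list transcripts with at least 1 count, and an absent row was read as 0. Totals ran from 429026 to 1165740 counts.

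In R 4.3.3, edgeR 4.0.16 (filterByExpr, TMM, estimateDisp, glmQLFit, glmQLFTest) was fitted to the 6 libraries of an assay with time as factor, and to all 12 for the ratio, with TMM within each assay. P-values were Benjamini-Hochberg adjusted over all transcripts tested. The SE is the log2 change divided by the square root of F. The common dispersion corresponds to a coefficient of variation of 31% in RPF and 37.3% in mRNA. The pipeline was tested on simulated data. Alternatives were other scalings, DESeq2 1.42.0, other filters, the compared libraries alone, a replicate block and leaving out each library.

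All members are named whatever their values; of other transcripts, the most similar in course. The members and lists were chosen with earlier results of these data known. Further lists of ER folding, degradation and sensor genes and HEK293T markers were fixed by symbol and were not analysed here. Promoter sequences are from RefSeq, GRCh38.p14. Replicates differed by more than sampling noise (chi-square per degree of freedom 8.61 to 16.7), so none was counted as a duplicate.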

Additional observations from a re-analysis of the deposited data

Results flagged for a closer look

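PDIA4 was the single member whose footprints and mRNA parted in direction without overlap, here between 60 and 360 min: all footprint libraries were higher at the later time and all mRNA libraries lower. Over all transcripts in that comparison, 17.5% had higher footprints and 19.6% had lower mRNA without overlap. The share with both was not counted. Its footprints were 256 and 265 CPM at 360 min against 254 and 221 CPM at 60 min, and its mRNA was 168 and 156 CPM against 191 and 264 CPM. As an interaction of assay and time in edgeR, the log2 change of the ratio was 0.55 (SE 0.526), with an unadjusted p of 0.309 and an adjusted p of 0.949. The lowest footprint library of 360 min and the highest of 60 min were 256 and 254 CPM, and with library totals alone, without a filter or with at least 10 counts in every library the footprint levels of the 2 times overlapped.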

How the results depend on the processing

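No member with an adjusted p was under 0.05 in a comparison of times under any alternative run. The DESeq2 ratio at 0 min was offset, as depth was not equalised between the assays. It held the single member value past the threshold among 1201 with an adjusted p, that of PDIA3 (DESeq2 adjusted p 0.0319). DESeq2 gave none for a further 9, of PDIA3, DNAJB9 and HERPUD1, including HERPUD1 mRNA from 0 to 360 min and DNAJB9 in both assays from 60 to 360 min. The sign differed from the reported one in 101 of all 1210 values, in 1 of which the reported change exceeded its SE: HSP90B1 in TE from 0 to 360 min, which ranged from −0.028 to 1.199 on leaving out single libraries. HERPUD1 mRNA from 60 to 360 min had adjusted p-values from 0.1495 (no filter) to 0.937 (without mRNA 60 min replicate 2). Leaving out single libraries gave 5 to 8 members lower without overlap in mRNA from 0 to 360 min, beside 30.4% to 38% of all transcripts. For the changes from 0 to 60, 0 to 360 and 60 to 360 min in that order, the transcripts passing were 1, 1 and 6 in RPF under DESeq2, 1, 2 and 7 in RPF with the replicate block, and 17, 89 and 113 in mRNA without a filter. Without a filter RPF gave 1 from 0 to 60 min and 33 from 60 to 360 min, and TE gave 2 at the latter. DESeq2 gave 21 and 62 in mRNA at 360 min relative to 0 and to 60 min, and 3 in TE from 60 to 360 min. The 954 transcripts of the ratio at 0 min became 1911 without a filter. Under DESeq2 they were 1452, a count that mixes the method with the depth offset between the assays. Leaving out single libraries gave 0 to 1 in RPF from 0 to 60 and from 0 to 360 min, 0 to 75 in RPF (75 without RPF 360 min replicate 1) and 0 to 1 in mRNA from 60 to 360 min, and 0 to 1331 in the ratio. With the replicate block the HERPUD1 footprint change from 60 to 360 min was −1.24 (adjusted p 0.228), and no member call differed. The labels do not say what a replicate number shares: differences between replicates 1 and 2 correlated at 0.345 to 0.362 between RPF times and at −0.483 to 0.403 between mRNA times, across 4243 transcripts. DNAJB9 had no value with at least 10 counts in every library, nor in some comparisons with the compared libraries alone. The cause of these differences was not tested. Depth limits DNAJB9 most, at 1 to 36 counts per library.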
